A study of Homo sapiens with 52 samples.

Results

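MDA-MB-231, an established human triple-negative breast cancer cell line of the claudin-low type, was transfected with 1 of 2 siRNAs against NRP1 (neuropilin-1), and both siRNAs are set directly against each other here. siNRP1#5 was directed at every main form of NRP1, whereas siNRP1#3 was directed at the transmembrane form and left the soluble form untargeted. The comparison takes 3 samples of siNRP1#5 and 3 of siNRP1#3, that is 6 of the 52 samples of the series, chosen by cell line and siRNA label. Cells were reverse transfected with 20 nM siRNA and RNA was harvested 72 hrs later, after which stranded, poly(A)-enriched mRNA libraries were sequenced. A further 3 samples of the same line received a non-targeting siRNA (siNT) at the same dose and time. For comparison, MDA-MB-231 cells transduced with lentivirus carrying shNRP1#5 (3 samples) or shNRP1#3 (3 samples) went through puromycin selection, and RNA was taken 48 hrs after they were seeded, with consecutive passages as replicates. SUM159PT, another established claudin-low breast cancer line, was transfected with siNRP1#5 (2 samples, replicates 2 and 3) or siNRP1#3 (3 samples) as MDA-MB-231 was. Each arm rests on a single siRNA sequence in a single cell line, so that NRP1 form and siRNA sequence cannot be told apart within the direct comparison. p-values measure the spread between samples that the labels number as replicates.

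NRP1 is a cell surface co-receptor. Its extracellular part binds class 3 semaphorins and VEGF-family ligands and is held in the membrane by a single transmembrane segment, through which it works together with plexins, VEGF receptors, integrins and other growth factor receptors. Shorter, alternatively processed transcripts encode soluble NRP1, which keeps ligand-binding domains but has no transmembrane or intracellular part and can be released from the cell. An siRNA guide strand is loaded into an Argonaute protein, cleaves transcripts that match it along its length, and can also lower transcripts that pair only with its seed (guide bases 2 to 8), mostly through sites in 3′ UTRs, as a microRNA does.

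The target sites of the 2 siRNAs are held by different NRP1 forms. In GRCh38 both lie on chromosome 10, minus strand, within the coding sequence of NRP1-206, a transmembrane transcript with 17 exons. The siNRP1#3 site, chr10:33185638-33185656, is in exon 15 at positions 2688 to 2706 of that transcript. The siNRP1#5 site, chr10:33263779-33263797, is in exon 4 at positions 792 to 810. In the lines below the 19 bases matching the siRNA are in capitals, with 5 bases of flanking reference on either side, read in the direction of transcription:
siNRP1#3 site: attaaTAACCACATTTCACAAGAAgattg
siNRP1#5 site: cccaaCAGCCTTGAATGCACTTATattgt
The siNRP1#3 site was present in 4 of the 14 NRP1 transcripts, all 4 of the transmembrane class and 0 of the soluble class. The siNRP1#5 site was present in 9, the same 4 transmembrane transcripts and all 5 soluble ones. The guide strands, taken as the exact reverse complement of the published sense sequences and with the seed in capitals, are:
siNRP1#3 guide: uUCUUGUGaaaugugguua
siNRP1#5 guide: aUAAGUGCauucaaggcug
No mature human miRNA in the RefSeq table has either seed at its own bases 2 to 8. Shifted by 1 base, the siNRP1#5 seed UAAGUGC opens 5 members of the miR-302 family, of which hsa-miR-302a-3p is shown with its own seed in capitals, and the siNRP1#3 seed UCUUGUG opens 1 miRNA:
hsa-miR-302a-3p: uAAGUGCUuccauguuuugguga
hsa-miR-581: uCUUGUGUucucuagaucagu

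NRP1 itself was measured as CPM, which are library-size-normalised counts after TMM scaling (trimmed mean of M-values), computed from the deposited expected counts. Its level was 3.67, 2.69 and 2.1 CPM in siNRP1#5, 46.5, 54.3 and 54.2 CPM in siNRP1#3 and 73.1, 81.1 and 97.0 CPM in siNT. The 3 groups did not overlap, and siNRP1#5 was the lowest. In the direct comparison NRP1 fell by 4.18 on the log2 scale (SE 0.17, adjusted p = 1.03e-11, quasi-likelihood test of edgeR, p-values adjusted over 18800 genes by the Benjamini-Hochberg method). Against siNT its log2 fold change was -4.88 with siNRP1#5 and -0.7 with siNRP1#3, which share the siNT samples with each other and an arm each with the direct comparison. In bulk RNA a change in some of the cells and a smaller change in all of them cannot be told apart.

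The transcripts separated into the forms. Transcript levels are given in TPM (a level per transcript length, with the same total in every sample) as deposited, which RSEM estimates by sharing out reads that fit several transcripts. The 4 transmembrane transcripts together had 0.74, 0.32 and 0.35 TPM in siNRP1#5, 2.15, 3.09 and 2.77 TPM in siNRP1#3 and 14.35, 14.91 and 18.21 TPM in siNT. Both siRNAs thus left little of the transmembrane sum, 2.97% of the siNT mean with siNRP1#5 and 16.9% with siNRP1#3. The 5 soluble transcripts together had 0.11, 0.41 and 0.10 TPM in siNRP1#5, 21.28, 23.82 and 24.88 TPM in siNRP1#3 and 8.47, 8.42 and 10.43 TPM in siNT. Soluble transcripts were at 2.27% of the siNT mean with siNRP1#5 and at 256% with siNRP1#3, so that the soluble form was not merely kept but stood above siNT in all 3 siNRP1#3 samples. On log2(TPM + 0.1), siNRP1#5 minus siNRP1#3 was -2.34 for the transmembrane sum and -6.40 for the soluble sum (exact permutation test, two-sided, n = 3 and 3, p = 0.1 for each, the smallest p that 3 against 3 samples allow).

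NRP1-204 made up most of the soluble sum and NRP1-206 most of the transmembrane sum in siNT. NRP1-204 had 19.22, 21.79 and 22.3 TPM in siNRP1#3, 0.06, 0.37 and 0.01 TPM in siNRP1#5 and 6.05, 6.15 and 8.67 TPM in siNT. Its share of all NRP1 TPM was 77.6, 73.9 and 71.3% in siNRP1#3 against 23.6, 21 and 27.4% in siNT, by the deposited isoform percentages. NRP1-206 had 0.81, 1.53 and 0.91 TPM in siNRP1#3, 0.56, 0.32 and 0.35 TPM in siNRP1#5 and 12.04, 13.38 and 16.63 TPM in siNT. The transmembrane transcripts NRP1-207 and NRP1-208 stayed near siNT with siNRP1#3, although they hold its site. Their means were 1.13 and 0.39 TPM in siNRP1#3, 0.03 and 0 TPM in siNRP1#5 and 1.31 and 0.45 TPM in siNT. How far RSEM's sharing of reads moved NRP1-204 upwards where the transmembrane transcripts were depleted was not tested.

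**Figure D1:**
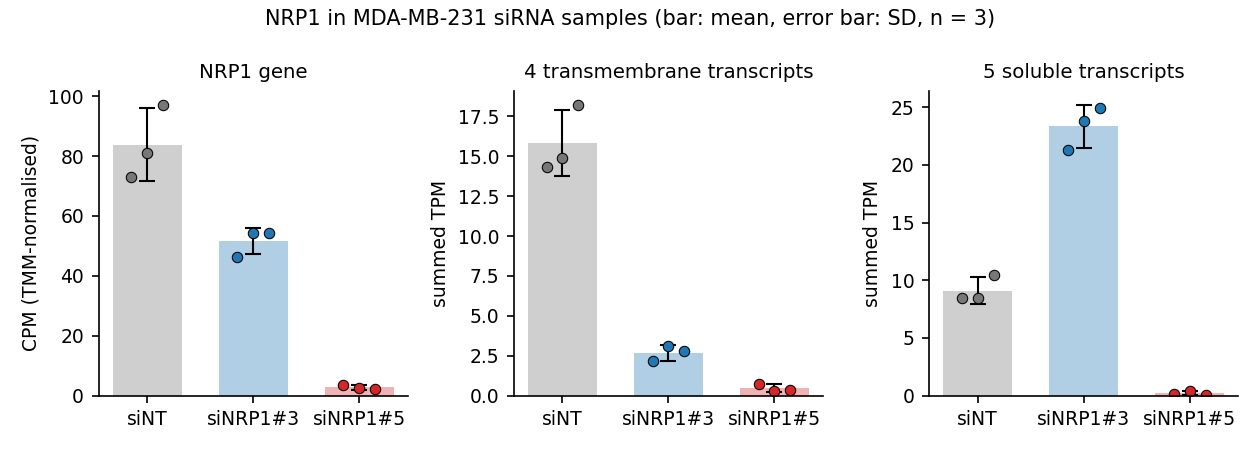
NRP1 in the 9 siRNA samples of MDA-MB-231, as TMM-normalised CPM of the gene (left) and as summed TPM of the 4 transmembrane (middle) and 5 soluble transcripts (right), on linear axes from 0; points are samples, bars are means and error bars the SD (n = 3). siNRP1#5 is near 0 in all 3 panels, whereas siNRP1#3 is low in the middle panel and, at 21.28 to 24.88 TPM, above siNT in the right one.

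The 6 libraries held 31112927 to 47384833 expected counts, and their 10 most abundant genes took 5.46 to 6.50% of them. Markers of claudin-low cells were checked in the same libraries. Of those taken as high, VIM was between 1741 and 3827 CPM and ZEB1 at least 21.5 CPM. ITGA6 was at least 106.81 CPM, but SNAI1 was at only 3.946 to 30.328 CPM. Of those taken as low, PGR was at most 0.106 CPM, CDH1 at most 10.3 CPM and CLDN3 at most 10.071 CPM. However, CLDN4 was at 129 to 331 CPM, CLDN7 at 20.452 to 60.956 CPM and ERBB2 at 47.83 to 117.11 CPM. Low expression thus did not hold for every claudin, nor for ERBB2. siNRP1#5 samples differed more among themselves than the others, with 280 to 1542 genes over 2-fold apart between pairs of replicates, against 55 to 133 in siNRP1#3 and 74 to 359 in siNT. Genes of the other cell lines of the series that MDA-MB-231 hardly expresses were at a median of at most 0.155% (40 HS578T genes) and at most 0.0829% (54 SUM159PT genes) of their own line's level in these 6 libraries.

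The siRNAs differed in a large part of the transcriptome. Of 18800 genes, 3769 (20.0%) were higher and 3560 (18.9%) were lower in siNRP1#5 than in siNRP1#3 at an adjusted p below 0.05, and 1539 and 1717 of them by at least 1 on the log2 scale. Of the 7329 genes called, 5761 were protein-coding and 1402 were lncRNAs. The samples of the groups did not overlap in 7620 genes (40.5%), of which 6421 were also called. Higher genes made up 51.4% of the calls with TMM scaling but 35.6% with library totals alone (2709 higher and 4898 lower), where the median of all genes moved from 0.01 to -0.14. The TMM factors of siNRP1#5 were 0.975, 0.844 and 0.855. Each siRNA was also set against siNT: siNRP1#5 had 2713 higher (14.4%) and 2805 lower genes (14.9%), and siNRP1#3 had 2143 higher (11.4%) and 2680 lower genes (14.3%). These share the siNT samples, and their values are given beside the direct ones below.

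CDH1, AQP3 and AQP5 were among the genes furthest higher in siNRP1#5. CDH1 encodes E-cadherin, the main adhesion molecule of epithelial junctions. It was at 9.92, 8.6 and 10.3 CPM in siNRP1#5, 0.045, 0.127 and 0.0959 CPM in siNRP1#3 and 0.825, 1.31 and 1.75 CPM in siNT. The groups lay in 3 separate ranges, with siNT between the siRNAs (log2 fold change 6.71, SE 0.48, edgeR, adjusted p = 4.09e-09). AQP3, a channel for water and glycerol, was at 123, 157 and 203 CPM in siNRP1#5, 4.82, 5.3 and 5.28 CPM in siNRP1#3 and 18.6, 26.6 and 23.0 CPM in siNT. It too was raised against siNT by one siRNA and lowered by the other (direct log2 fold change 4.97, SE 0.28, edgeR, adjusted p = 6.5e-10, with 2.82 and -2.15 against siNT for siNRP1#5 and siNRP1#3). AQP5, another water channel, was at 21.4, 35.6 and 27.2 CPM in siNRP1#5, 0.428, 0.295 and 0.256 CPM in siNRP1#3 and 1.59, 3.08 and 2.6 CPM in siNT, again with siNT in between (log2 fold change 6.39, SE 0.37, edgeR, adjusted p = 5.07e-10).

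CD180, a Toll-like receptor homologue best known from B cells, was at 18.8, 22.6 and 8.67 CPM in siNRP1#5 with only 2 counts in all siNRP1#3 samples, a ratio of 1023 with a counting interval from 283 to 8456. CD248 (endosialin), a surface protein of stromal cells, had 267 counts in siNRP1#5 and 0 in siNRP1#3, which makes it at least 96.8-fold higher against a floor of 3 counts over the group. TNFSF18, the ligand of GITR, was at 10.4, 7.23 and 8.26 CPM against 0.158, 0.253 and 0.128 CPM. The siNT samples were at 0.165, 0.127 and 0.148 CPM, so that siNRP1#3 lay at the siNT level and siNRP1#5 above both (log2 fold change 5.53, SE 0.36, edgeR, adjusted p = 1.33e-09). LSP1, an actin-binding protein of leukocytes, was at 8.44, 17.4 and 12.1 CPM against 0.18, 0.169 and 0.32 CPM in siNRP1#3 (log2 fold change 5.86, SE 1.20, edgeR, adjusted p = 0.00161). LRRC32 (GARP), which anchors latent TGF-beta at the cell surface, was at 5.37, 7.43 and 14.9 CPM against 0.158, 0.148 and 0.128 CPM (log2 fold change 5.96, SE 1.07, edgeR, adjusted p = 0.00054). RAB17, a small GTPase of epithelial membrane traffic, had a log2 fold change of 5.21 (SE 0.55, edgeR, adjusted p = 1.28e-06), GSG1 one of 4.94 (SE 0.43, edgeR, adjusted p = 5.77e-08) and the imprinted lncRNA H19 one of 5.39 (SE 1.49, edgeR, adjusted p = 0.0117). ALPP, placental alkaline phosphatase, at 6.04 (edgeR, adjusted p = 5.79e-07), and TRBC2, a T cell receptor constant segment, at 6.3 (edgeR, adjusted p = 3.05e-10), have near-identical copies in the genome, so that their counts are uncertain.

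CSF3, GALNT3 and HFE were among the genes furthest lower in siNRP1#5. CSF3, the granulocyte colony-stimulating factor, was at 1.02, 0.806 and 3.68 CPM in siNRP1#5, 125, 57.1 and 81.0 CPM in siNRP1#3 and 32.4, 14.8 and 23.9 CPM in siNT. siNRP1#5 was below siNT and siNRP1#3 above it without overlap (log2 fold change -5.58, SE 0.68, edgeR, adjusted p = 2.08e-05). GALNT3, which starts mucin-type O-glycosylation, was at 1.63, 0.567 and 1.23 CPM in siNRP1#5, 17.7, 20.7 and 20.9 CPM in siNRP1#3 and 19.5, 17.6 and 18.6 CPM in siNT. In this gene siNRP1#3 and siNT differed by only 0.09 on the log2 scale, and siNRP1#5 alone was low (log2 fold change -4.09, SE 0.24, edgeR, adjusted p = 5.07e-10). HFE, the regulator of iron uptake, was likewise low in siNRP1#5 alone, with 1.49, 1.52 and 2.05 CPM against 15.7, 17.8 and 21.2 CPM in siNRP1#3 and 12.9, 13.9 and 20.3 CPM in siNT (log2 fold change -3.44, SE 0.20, edgeR, adjusted p = 3.65e-10). MPC1, a subunit of the mitochondrial pyruvate carrier, was at 1.93, 1.28 and 1.34 CPM against 15.9, 15.6 and 10.0 CPM in siNRP1#3 and 17.9, 19.9 and 13.7 CPM in siNT (log2 fold change -3.18, SE 0.23, edgeR, adjusted p = 6.19e-09). ANKRD52, a regulatory subunit of a protein phosphatase that acts on Argonaute, was at 24.5, 17.3 and 15.3 CPM against 225, 189.7 and 202 CPM in siNRP1#3 and 158, 142 and 97.3 CPM in siNT, with siNT between the siRNAs (log2 fold change -3.43, SE 0.19, edgeR, adjusted p = 2.47e-10). SLAIN1, a microtubule growth factor, had a log2 fold change of -3.73 (SE 0.29, edgeR, adjusted p = 1.16e-08) and PRDM8 one of -3.32 (SE 0.20, edgeR, adjusted p = 6.37e-10), with 0.61 for siNRP1#3 against siNT. RGPD5, at -3.24 (edgeR, adjusted p = 0.00287), belongs to a family of near-identical copies and is uncertain.

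LCP1 (L-plastin), an actin-bundling protein, was the other way round. It was at 10.7, 8.75 and 13.0 CPM in siNRP1#5, 81.7, 93.1 and 113 CPM in siNRP1#3 and 6.52, 7.28 and 11.2 CPM in siNT. Here siNRP1#3 alone stood apart, and the direct difference (log2 fold change -3.15, SE 0.21, edgeR, adjusted p = 1.33e-09) goes with 3.52 for siNRP1#3 and 0.37 for siNRP1#5 against siNT. A direct fold change can therefore come from either arm.

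**Figure D2:**
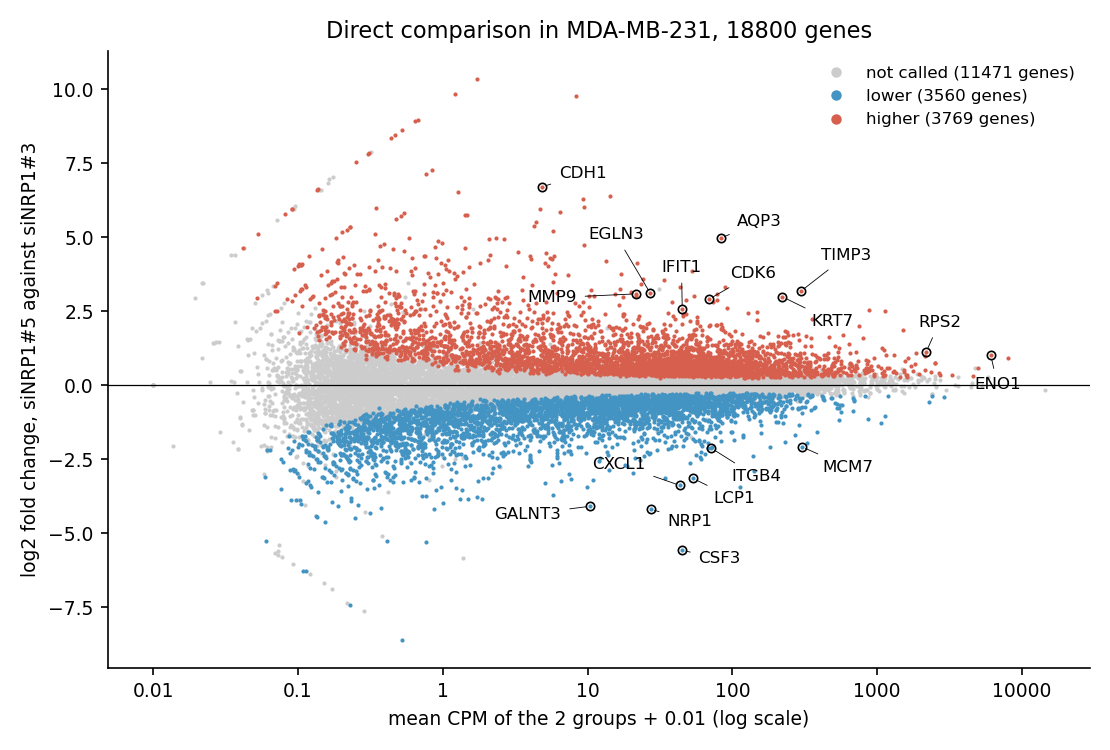
Each point is 1 of 18800 genes in MDA-MB-231, with the mean CPM of both siRNA groups plus 0.01 on a log axis and the log2 fold change of siNRP1#5 against siNRP1#3 on the vertical axis; red genes are higher and blue genes lower at an adjusted p below 0.05 (edgeR). The 3769 higher and 3560 lower genes spread over the whole range of levels, from CDH1 at 6.71 down to CSF3 at -5.58 among the named ones.

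**Figure D3:**
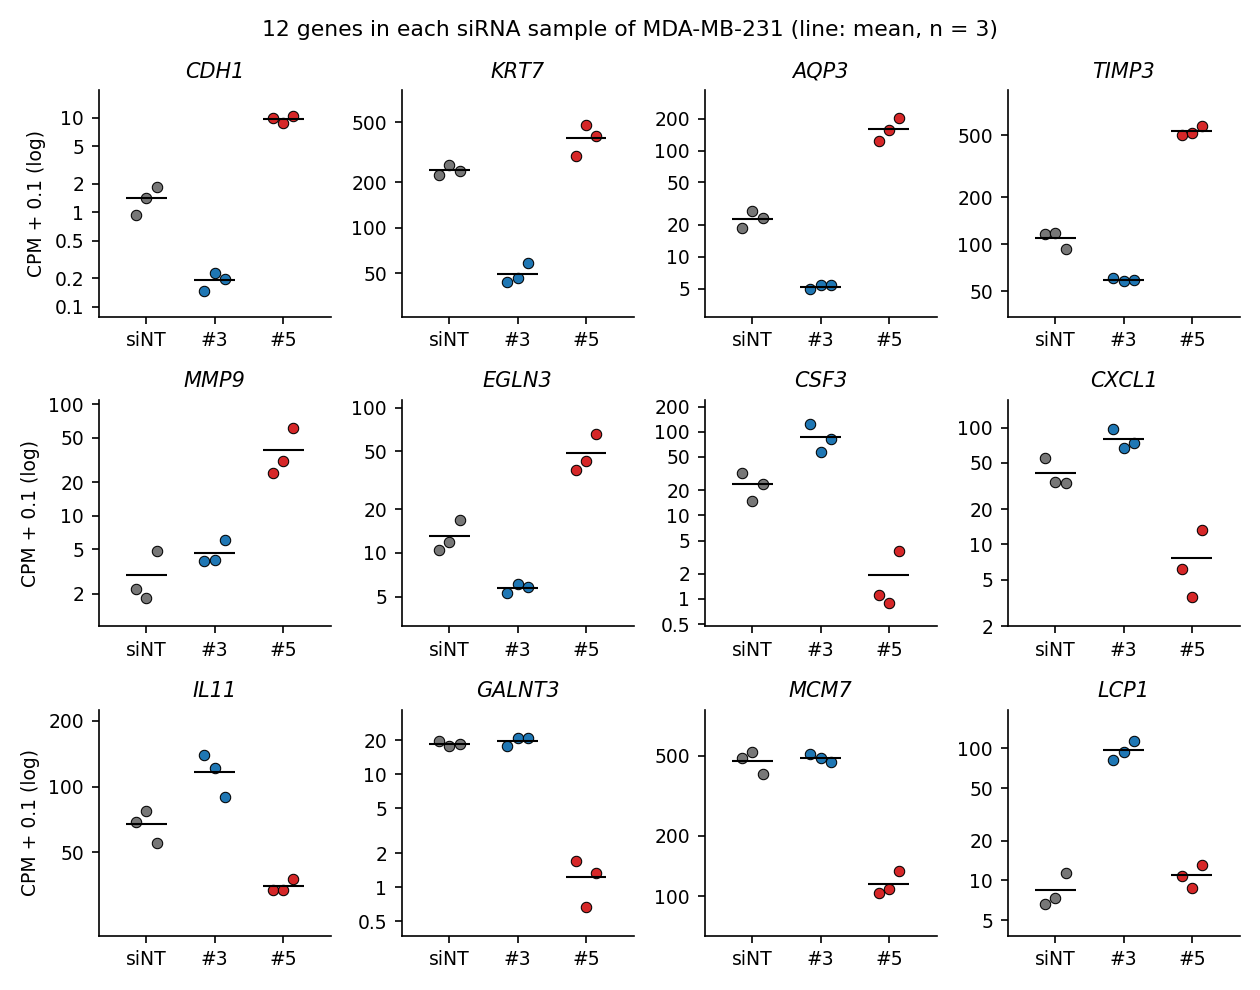
CPM plus 0.1 (log axis) of 12 genes in each siRNA sample of MDA-MB-231, with a line at the mean of 3 samples. CDH1, KRT7, AQP3, TIMP3 and EGLN3 have siNT between siNRP1#3 below and siNRP1#5 above, CSF3, CXCL1 and IL11 have the reverse order, in GALNT3 and MCM7 siNRP1#5 alone is low, in MMP9 siNRP1#5 alone is high, and in LCP1 siNRP1#3 alone is high.

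Gene groups are read against the shares of all genes, 20.0% higher and 18.9% lower with a median log2 fold change of 0.01. Of 14 genes of NRP1 ligands tested, 7 were higher in siNRP1#5, 1 was lower and 6 did not pass, with a median of 0.65 (0.51 for siNRP1#5 and -0.36 for siNRP1#3 against siNT). Without siNRP1#5 replicate 3 the median was 0.37, with 6 higher. PDGFB, the B chain of platelet-derived growth factor, was at 25.1, 28.8 and 52.8 CPM in siNRP1#5, 2.88, 3.52 and 5.69 CPM in siNRP1#3 and 4.62, 5.48 and 5.22 CPM in siNT. siNRP1#5 was far above both other groups, which overlapped (log2 fold change 3.15, SE 0.30, edgeR, adjusted p = 2.04e-07). PGF, placental growth factor, was at 29.3, 49.4 and 75.7 CPM against 13.7, 13.6 and 17.9 CPM (log2 fold change 1.78, SE 0.27, edgeR, adjusted p = 5.57e-05). SEMA3F, which binds mainly NRP2, was at 25.7, 27.3 and 57.3 CPM against 7.52, 6.35 and 9.43 CPM, with siNT in between at 11.4, 9.74 and 17.7 CPM (log2 fold change 2.25, SE 0.27, edgeR, adjusted p = 3.79e-06), and SEMA3D had a log2 fold change of 2.28 (SE 0.28, edgeR, adjusted p = 3.99e-06). SEMA3A, the classical repulsive ligand of NRP1, was the one member that fell, by 1.08 on the log2 scale (edgeR, adjusted p = 0.0066). VEGFA, at 0.64 (edgeR, adjusted p = 0.135), did not pass.

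Among receptors and intracellular partners that act together with NRP1, 14 of 22 were higher, 3 were lower and 5 did not pass, with a median of 0.64 (11 to 14 higher when a sample was left out, 10 higher with library totals alone). Against siNT the median was 0.09 for siNRP1#5 and -0.42 for siNRP1#3, so that the larger step was the one below siNT with siNRP1#3. KDR (VEGF receptor 2) was at 7.79, 5.73 and 6.3 CPM in siNRP1#5, 2.25, 1.77 and 1.92 CPM in siNRP1#3 and 1.65, 1.2 and 1.9 CPM in siNT. It was above both other groups in all 3 siNRP1#5 samples, though at a low level (log2 fold change 1.74, SE 0.18, edgeR, adjusted p = 5.44e-07). PLXND1, a semaphorin receptor, was at 125, 148 and 216 CPM against 58.5, 48.8 and 79.1 CPM (log2 fold change 1.39, SE 0.18, edgeR, adjusted p = 6.64e-06). L1CAM, an adhesion molecule that pairs with NRP1 in axon guidance, was at 166, 150.1 and 236 CPM against 67.8, 59.4 and 91.8 CPM, with siNT at 188, 185 and 220.1 CPM. Its difference (log2 fold change 1.34, SE 0.17, edgeR, adjusted p = 6.97e-06) lies on the siNRP1#3 side, since siNRP1#5 and siNT overlapped. NRP2, the paralogue of NRP1, had a log2 fold change of 1.27 (SE 0.22, edgeR, adjusted p = 0.000171), EGFR one of 0.69 (SE 0.14, edgeR, adjusted p = 0.000664) and MET one of 0.64 (SE 0.16, edgeR, adjusted p = 0.00453). In expected counts, not scaled for depth, NRP2 had 1506, 718 and 1580 in siNRP1#5, 542, 598 and 516 in siNRP1#3 and 1570, 1907 and 2214 in siNT. EGFR had 5015, 3083 and 3361 in siNRP1#5, 2484, 2750 and 2257 in siNRP1#3 and 5157, 5738 and 5860 in siNT. In neither gene did siNRP1#5 lie above siNT, and siNRP1#3 was the lowest. MET had more counts than siNT with either siRNA. Of the 3 that fell, TGFBR2, the type II TGF-beta receptor, was at 74.9, 49.5 and 107 CPM against 207, 229 and 275 CPM in siNRP1#3 and 213, 228 and 260.1 CPM in siNT (log2 fold change -1.62, SE 0.19, edgeR, adjusted p = 1.76e-06), and ITGB3 and MYO6 had -1.04 (edgeR, adjusted p = 0.00943) and -0.67 (edgeR, adjusted p = 0.00501).

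Members of both the epithelial and the mesenchymal group were higher in siNRP1#5 than in siNRP1#3. Of 18 epithelial genes, 10 were higher and 1 lower (median 0.51, with 0.41 for siNRP1#5 and -0.22 for siNRP1#3 against siNT). Of 13 genes of epithelial-mesenchymal transition (EMT), 6 were higher and 0 lower (median 0.71, with 0.31 for siNRP1#5 and -0.74 for siNRP1#3 against siNT). The EMT median was 0.09 to 0.43 when a sample was left out, where 15 genes were tested and 5 or 6 were higher, and 0.14 over 16 genes with no filter on low counts. Besides CDH1, the keratin KRT7 was at 299, 478 and 403 CPM in siNRP1#5, 43.6, 46.2 and 58.7 CPM in siNRP1#3 and 223, 259.7 and 236 CPM in siNT. Its largest step was the drop with siNRP1#3, -2.28 against siNT (log2 fold change 2.99, SE 0.18, edgeR, adjusted p = 7.39e-10 directly). KRT18 was at 1064, 2017 and 1516 CPM against 719, 666 and 649 CPM (log2 fold change 1.18, SE 0.16, edgeR, adjusted p = 1.54e-05). CDH3 (P-cadherin) had a log2 fold change of 2.92 (SE 0.36, edgeR, adjusted p = 3.38e-06), whereas CLDN3 was the member that fell, with -1.13 (SE 0.28, edgeR, adjusted p = 0.00395). On the mesenchymal side SNAI1, a repressor of CDH1, was at 17.6, 19.1 and 30.3 CPM against 4.59, 3.95 and 4.09 CPM, with siNT at 7.5, 7.95 and 10.6 CPM. It thus moved in the same direction as CDH1, with siNT between the siRNAs in both (log2 fold change 2.41, SE 0.25, edgeR, adjusted p = 4.02e-07). S100A4 was at 903, 1402 and 1308 CPM against 401, 425 and 372 CPM (log2 fold change 1.59, SE 0.21, edgeR, adjusted p = 1.21e-05), and VIM, the intermediate filament vimentin, at 2625, 3827 and 3041 CPM against 1951, 1741 and 1950.2 CPM (log2 fold change 0.75, SE 0.13, edgeR, adjusted p = 0.000144). In expected counts, not scaled for depth, VIM had 112965, 128190 and 111488 in siNRP1#5 and 112835, 157456 and 142831 in siNT, so that these groups overlapped. Neither ZEB1, at 0.2 (edgeR, adjusted p = 0.542), nor FN1, at -0.54 (edgeR, adjusted p = 0.238), passed.

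In adhesion and matrix genes the parts of one receptor moved in opposite directions. Of 18 integrin and laminin-332 genes, 9 were higher and 5 were lower (median 0.56, with 0.03 for siNRP1#5 and -0.55 for siNRP1#3 against siNT). ITGA6, the alpha chain of the laminin receptors, was at 404, 289.6 and 322 CPM in siNRP1#5, 107, 112 and 110.1 CPM in siNRP1#3 and 251, 231 and 265 CPM in siNT (log2 fold change 1.63, SE 0.12, edgeR, adjusted p = 9.21e-09). ITGB4, the beta chain that pairs with it in hemidesmosomes, was at 24.2, 19.1 and 36.5 CPM in siNRP1#5, 102, 88.9 and 156 CPM in siNRP1#3 and 108, 96.4 and 132 CPM in siNT (log2 fold change -2.12, SE 0.22, edgeR, adjusted p = 6.31e-07). ITGA6 stood apart from siNT in both arms, while ITGB4 was low in siNRP1#5 alone. Among laminin-332 genes, LAMA3 was lower, at -1.03 (edgeR, adjusted p = 0.000304), as was LAMB3, at -0.66 (edgeR, adjusted p = 0.00175). ITGA2, of the collagen receptor, had 1.26 (SE 0.15, edgeR, adjusted p = 2.15e-06), and ITGA7 had 1.94 (SE 0.25, edgeR, adjusted p = 5.31e-06).

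Of 15 genes of proteases and plasminogen activation, 7 were higher and 4 were lower (median -0.02). The median ranged from -0.20 to 0.90 over the alternatives, the highest with reads of other cell lines subtracted, while 6 or 7 were higher and 4 lower in each. TIMP3, a matrix-bound inhibitor of metalloproteinases, was at 505, 514 and 577 CPM in siNRP1#5, 60.3, 57.6 and 59.0 CPM in siNRP1#3 and 117, 118 and 92.7 CPM in siNT. Replicates were close and the groups lay far apart (log2 fold change 3.17, SE 0.15, edgeR, adjusted p = 4.46e-11). TIMP2, a related inhibitor, was at 837, 754 and 1067 CPM against 258, 264 and 299 CPM, with siNT in between at 581, 587 and 695 CPM (log2 fold change 1.7, SE 0.12, edgeR, adjusted p = 6.33e-09). MMP9, a gelatinase, was at 23.8, 30.6 and 60.7 CPM in siNRP1#5, 3.81, 3.88 and 5.91 CPM in siNRP1#3 and 2.09, 1.73 and 4.74 CPM in siNT, so that inhibitors and a protease were higher together (log2 fold change 3.09, SE 0.43, edgeR, adjusted p = 3.2e-05). In the plasminogen system PLAU (urokinase) and its receptor PLAUR were lower, with -0.9 (edgeR, adjusted p = 0.000268) and -0.87 (edgeR, adjusted p = 0.000157).

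Of 20 NF-kB-driven cytokines, chemokines and regulators, 10 were lower and 3 were higher (median -0.73, with -0.68 for siNRP1#5 and 0.04 for siNRP1#3 against siNT). CXCL1, a neutrophil chemoattractant, was at 6.04, 3.43 and 13.2 CPM in siNRP1#5, 97.1, 66.1 and 73.9 CPM in siNRP1#3 and 54.9, 33.8 and 33.6 CPM in siNT. CXCL3, of the same family, was at 1.86, 1.79 and 2.73 CPM in siNRP1#5, 28.4, 15.6 and 14.5 CPM in siNRP1#3 and 13.9, 6.81 and 6.81 CPM in siNT. In both, siNRP1#5 lay below siNT and siNRP1#3 above it (log2 fold change -3.38, SE 0.60, edgeR, adjusted p = 0.000518 for CXCL1, log2 fold change -3.2, SE 0.37, edgeR, adjusted p = 3.2e-06 for CXCL3). IL11, a cytokine of the IL-6 family, was at 33.4, 33.5 and 37.6 CPM against 139.6, 122 and 89.2 CPM in siNRP1#3 and 69.1, 76.8 and 55.0 CPM in siNT, again on either side of siNT (log2 fold change -1.75, SE 0.20, edgeR, adjusted p = 1.17e-06). CXCL8 (interleukin-8) had -2.89 (SE 0.57, edgeR, adjusted p = 0.00121) and IL6 -1.09 (SE 0.41, edgeR, adjusted p = 0.0492). The 3 that were higher than in siNRP1#3 were CXCL5 at 2.82 (edgeR, adjusted p = 0.0141), CCL2 at 1.04 (edgeR, adjusted p = 0.0171) and BIRC3 at 0.81 (edgeR, adjusted p = 0.0201). Leaving out a sample gave 6 to 12 lower and 0 to 3 higher members, with 6 lower without siNRP1#5 replicate 1 or 2 and 0 higher without siNRP1#3 replicate 1.

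Glycolysis and hypoxia genes had the largest share of higher members among the 18 lists: 15 of 20 were higher, 0 were lower and 5 did not pass (median 0.82, with 0.68 for siNRP1#5 and -0.16 for siNRP1#3 against siNT). With library totals alone 13 were higher and 2 lower. EGLN3, an oxygen-sensing prolyl hydroxylase that is itself induced by hypoxia, was at 37.2, 42.5 and 66.2 CPM in siNRP1#5, 5.22, 6.04 and 5.69 CPM in siNRP1#3 and 10.4, 11.8 and 16.8 CPM in siNT. NDRG1, a stress gene strongly induced by low oxygen, was at 1321, 1539 and 2863 CPM in siNRP1#5, 316, 270.0 and 428 CPM in siNRP1#3 and 375, 320.2 and 679.7 CPM in siNT. siNRP1#5 stood above both other groups without overlap in either gene (log2 fold change 3.1, SE 0.23, edgeR, adjusted p = 6.54e-09 for EGLN3, log2 fold change 2.5, SE 0.34, edgeR, adjusted p = 2.72e-05 for NDRG1). ENO1, a glycolytic enzyme and the most abundant of the called genes with a change of at least 1, was at 6027, 9392 and 8971 CPM against 4212, 4045 and 3837 CPM (log2 fold change 1.01, SE 0.15, edgeR, adjusted p = 2.75e-05). HK2, hexokinase 2, was at 213, 169.8 and 214 CPM against 103, 102 and 110.3 CPM (log2 fold change 0.92, SE 0.12, edgeR, adjusted p = 9.21e-06). SLC2A1 (GLUT1), CA9 and LDHA had 0.9 (edgeR, adjusted p = 0.000148), 1.53 (edgeR, adjusted p = 0.0196) and 0.75 (edgeR, adjusted p = 4.98e-05).

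**Figure D4:**
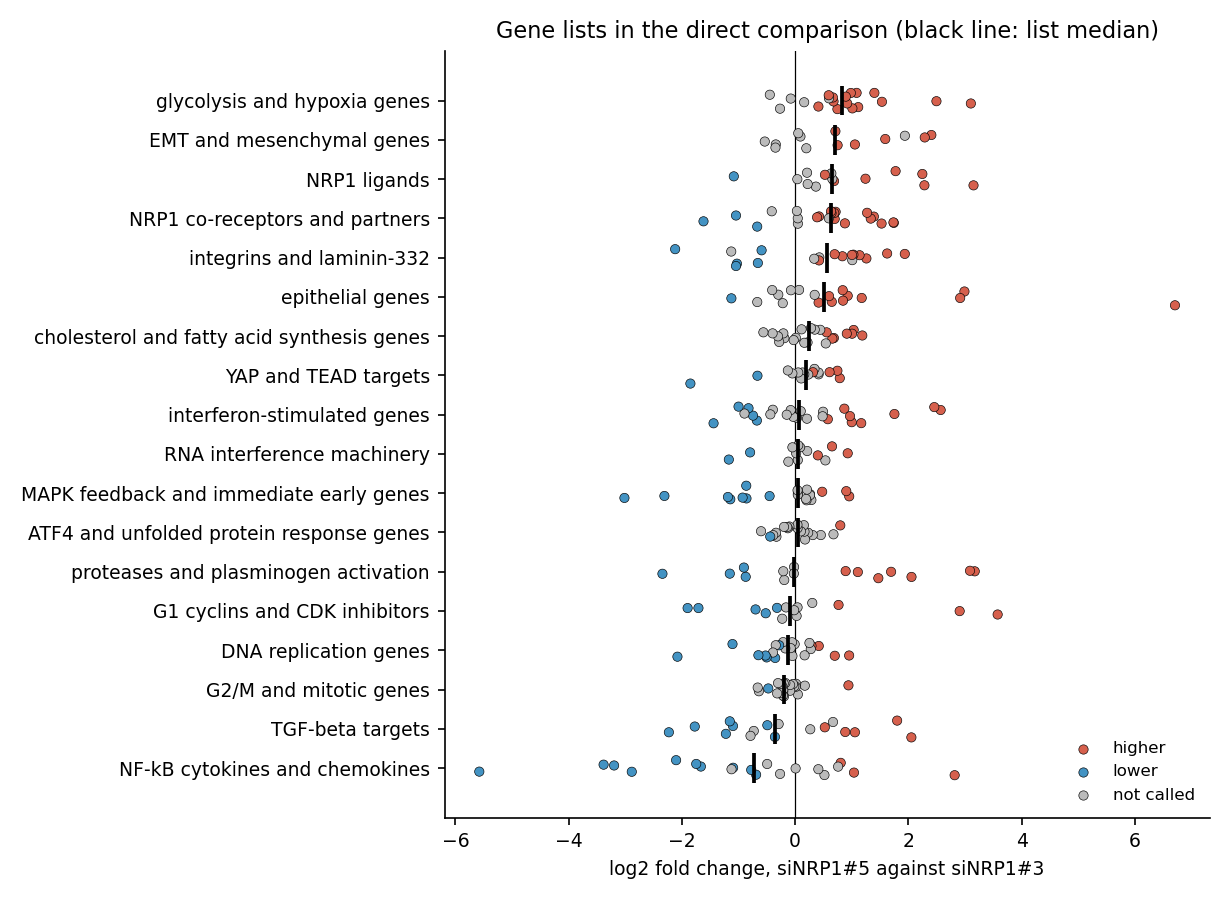
Log2 fold change of siNRP1#5 against siNRP1#3 of the members of 18 gene lists in MDA-MB-231; each point is a gene, red if higher, blue if lower and grey if not called, and the black bar is the list's median. The medians run from 0.82 for glycolysis and hypoxia genes down to -0.73 for NF-kB cytokines and chemokines, and most lists hold genes on both sides of 0.

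Genes downstream of MAPK signalling were divided, with 3 of 20 higher and 8 lower and a median of 0.05. The median turned negative with library totals alone (-0.11), without siNRP1#5 replicate 3 (-0.23) and without siNRP1#3 replicate 2 (-0.03). The immediate early factor EGR1 was at 2.35, 1.19 and 1.34 CPM against 17.9, 8.65 and 13.2 CPM in siNRP1#3 and 6.68, 2.02 and 2.16 CPM in siNT (log2 fold change -3.01, SE 0.55, edgeR, adjusted p = 0.000445). FOSL1, an AP-1 subunit, was at 321, 355 and 322 CPM against 910.1, 709 and 652 CPM (log2 fold change -1.19, SE 0.14, edgeR, adjusted p = 1.58e-06), and its relatives FOS and FOSB had -1.15 (edgeR, adjusted p = 0.00188) and -2.31 (edgeR, adjusted p = 0.00114). The ETS factors parted, since ETV5 had -0.93 (SE 0.20, edgeR, adjusted p = 0.00102) and ETV4 0.96 (SE 0.12, edgeR, adjusted p = 4.22e-06).

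Cell cycle genes did not move as a block. Of 22 G2/M genes 1 was higher (AURKA, log2 fold change 0.94, edgeR, adjusted p = 6.21e-07) and 1 lower (BUB1, log2 fold change -0.47, edgeR, adjusted p = 0.0132), or 8 lower with library totals alone, and of 22 DNA replication genes 4 were higher and 7 lower. MCM7, a subunit of the replicative helicase, was at 104, 108 and 134 CPM in siNRP1#5, 512, 484 and 464 CPM in siNRP1#3 and 485, 521 and 407 CPM in siNT. It was low in siNRP1#5 alone (log2 fold change -2.08, SE 0.12, edgeR, adjusted p = 2.92e-10), whereas another subunit, MCM6, had 0.7 (SE 0.14, edgeR, adjusted p = 0.000689). CDC45, which joins the same helicase, was at 16.1, 16.6 and 16.3 CPM against 37.6, 34.7 and 33.3 CPM (log2 fold change -1.11, SE 0.13, edgeR, adjusted p = 1.49e-06). Among 14 G1 cyclins and CDK inhibitors, 3 were higher and 5 lower. CDK2 was at 27.0, 19.8 and 27.6 CPM in siNRP1#5, 89.3, 97.8 and 90.6 CPM in siNRP1#3 and 103, 103 and 104 CPM in siNT. CDK6 was at 181, 101 and 81.8 CPM in siNRP1#5, 14.5, 18.1 and 15.9 CPM in siNRP1#3 and 122, 83.3 and 65.6 CPM in siNT. The kinases thus differed in the arm concerned, CDK2 being low in siNRP1#5 (log2 fold change -1.9, SE 0.12, edgeR, adjusted p = 7.93e-10) and CDK6 low in siNRP1#3 (log2 fold change 2.91, SE 0.27, edgeR, adjusted p = 2.65e-07). The CDK inhibitor CDKN1C (p57) was at 26.9, 57.3 and 50.5 CPM against 3.78, 3.59 and 3.9 CPM, with siNT at 5.25, 6.62 and 11.9 CPM (log2 fold change 3.58, SE 0.34, edgeR, adjusted p = 3.33e-07) and CDKN1B (p27) had 0.77 (SE 0.14, edgeR, adjusted p = 0.000172).

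Interferon-stimulated genes went both ways, 8 of 24 higher and 5 lower (median 0.07, which turned negative with library totals alone). IFIT1, an antiviral RNA-binding protein, was at 81.6, 92.2 and 57.7 CPM in siNRP1#5, 11.1, 15.3 and 12.5 CPM in siNRP1#3 and 55.6, 65.4 and 48.5 CPM in siNT. The siNRP1#5 and siNT samples overlapped, and siNRP1#3 alone was low (log2 fold change 2.57, SE 0.22, edgeR, adjusted p = 6.01e-08). IFIT2, of the same family, was at 56.0, 59.5 and 37.7 CPM against 13.9, 18.1 and 13.3 CPM (log2 fold change 1.75, SE 0.20, edgeR, adjusted p = 1.72e-06) and ISG15 had 1.17 (SE 0.17, edgeR, adjusted p = 1.91e-05). IRF9, a subunit of the factor that switches these genes on, was lower, at 11.9, 12.2 and 17.5 CPM against 36.7, 33.6 and 42.6 CPM (log2 fold change -1.44, SE 0.18, edgeR, adjusted p = 4.5e-06).

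Of 17 TGF-beta targets 5 were higher and 7 lower (median -0.36). TGFB2 was at 135, 101 and 104 CPM against 21.5, 27.1 and 33.3 CPM, with siNT in between at 56.0, 52.8 and 54.2 CPM (log2 fold change 2.05, SE 0.15, edgeR, adjusted p = 7.66e-09) and BMP4 had 1.8 (SE 0.21, edgeR, adjusted p = 2.54e-06). SKIL, a feedback inhibitor of the pathway, had -2.23 (SE 0.29, edgeR, adjusted p = 7.93e-06). Of 16 YAP and TEAD targets 4 were higher and 2 lower (8 higher without siNRP1#5 replicate 2 and 3 or 4 without any other sample), with LATS2, a kinase that restrains YAP, at -1.85 (SE 0.17, edgeR, adjusted p = 1.08e-07) and F3, tissue factor, at 0.79 (SE 0.14, edgeR, adjusted p = 0.00024). In cholesterol and fatty acid synthesis 7 of 22 were higher and 0 lower (6 and 3 with library totals alone). Of 20 ATF4 and unfolded protein response genes 1 was higher (SHMT2, log2 fold change 0.8, edgeR, adjusted p = 0.00186) and 1 lower (ATF4, log2 fold change -0.44, edgeR, adjusted p = 0.0183), and without siNRP1#5 replicate 3 the lower ones were 5. Of 13 genes of the RNA interference machinery 3 were higher and 2 lower, AGO1 at -1.17 (SE 0.15, edgeR, adjusted p = 3.89e-06) and TNRC6B at -0.79 (SE 0.13, edgeR, adjusted p = 7.58e-05) being the ones that fell. Called genes at the highest levels were higher in siNRP1#5: RPS2, a ribosomal protein with many pseudogene copies, at 1.13 (SE 0.15, edgeR, adjusted p = 9e-06), TMSB4X at 1.08 (SE 0.12, edgeR, adjusted p = 8.24e-07), IGFBP4 at 1.87 (SE 0.22, edgeR, adjusted p = 2.55e-06), CAVIN1 at 1.02 (SE 0.13, edgeR, adjusted p = 6.45e-06) and SCD at 1.03 (SE 0.28, edgeR, adjusted p = 0.00816).

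The called genes were next described by what their 3′ UTRs hold. A 3′ UTR was taken as the bases after the stop codon of the gene's longest coding transcript, which gave one for 13714 of the 18800 genes. It was searched, on the transcript's strand, for the 7 bases that pair with a guide's seed. The match of siNRP1#5 is GCACTTA. That of siNRP1#3, which cannot overlap with it, reads CACAAGA. Over all of these genes 9.71% held the siNRP1#5 match and 10.9% the siNRP1#3 match. The siNRP1#5 match was in 21.3% of lower genes, 5.87% of higher genes and 7.56% of genes not called. The siNRP1#3 match was in 15.6% of higher, 9.02% of lower and 9.73% of uncalled genes. The median 3′ UTR length was 1416 bases in lower, 1593 in higher and 1334 in uncalled genes. A match of these letters is a description and not a binding site, and no test was made on the shares.

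Read the other way, 1044 genes held only the siNRP1#5 match, and 43.6% of these were lower and 12.9% higher, with a median log2 fold change of -0.33 (455 and 135 genes). Of 1214 genes with only the siNRP1#3 match, 36.4% were higher and 11.9% lower, with a median of 0.25 (442 and 144 genes). The 11169 genes with neither had 22.8% higher and 16.6% lower and a median of 0.05, and supplied 2541 of the higher and 1856 of the lower calls. All 13714 genes with a 3′ UTR gave 3169 higher and 2540 lower calls. Most of these calls were on genes without either match, as most of the genes held neither. Against siNT the siNRP1#5-only genes had a median of -0.48 with siNRP1#5 and -0.13 with siNRP1#3, and the siNRP1#3-only genes one of -0.01 with siNRP1#5 and -0.29 with siNRP1#3. Among the shortest 3′ UTRs (the lowest of 3 equal groups by length), 69.4% of the 72 genes with only the siNRP1#5 match were lower (median -1.11) and 48.6% of the 107 with only the siNRP1#3 match were higher (median 0.52), while of those with neither 17.4% were lower and 19.6% higher. In the middle group 55.0% of 282 siNRP1#5-only genes were lower (median -0.57) and 35.6% of 326 siNRP1#3-only genes were higher (median 0.24). In the longest, which held most of these genes, the shares were smaller for siNRP1#5, with 36.2% of 690 lower (median -0.22), and 35.1% of 781 siNRP1#3-only genes were higher (median 0.22).

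Several of the most changed genes held a match. Of the 12 genes named above as furthest lower, 6 had the siNRP1#5 match (GALNT3, SLAIN1, HFE, CXCL1, PRDM8 and MPC1), and of 10 of those furthest higher that have a 3′ UTR, 2 had the siNRP1#3 match (CDH1 and LRRC32). Of all 39 lower genes named by rule that have a 3′ UTR, 16 held the siNRP1#5 match, 8 the siNRP1#3 match (6 of them both) and 21 neither. Of the 67 higher ones, 14 held the siNRP1#3 match, 2 the siNRP1#5 match (1 of them both) and 52 neither. MCM7, CDK2, ITGB4, TGFBR2 and LATS2 were lower with the siNRP1#5 match alone, and KRT7, ITGA6 and TGFB2 higher with the siNRP1#3 match alone. Matches also lay the other way: EGR1 and TNRC6B were lower with the siNRP1#3 match alone, IGFBP4 was higher with the siNRP1#5 match alone, and MPC1, PRDM8, AGO1 and TIMP2 held both. Among the gene groups, 1 of the 10 lower NF-kB genes (CXCL1) held the siNRP1#5 match and 3 of the 15 higher glycolysis and hypoxia genes (BNIP3, PDK1 and PGK1) held the siNRP1#3 match. Over all genes these shares were 21.3% of lower and 15.6% of higher ones. In integrins and laminin-332, 4 of 9 higher genes (ITGA2, ITGA6, ITGA7 and ITGA10) held the siNRP1#3 match and 2 of 5 lower ones (ITGB3 and ITGB4) the siNRP1#5 match. In NRP1 co-receptors and partners these were 2 of 14 and 2 of 3 (ITGB3 and TGFBR2), while 0 of 6 higher EMT genes held the siNRP1#3 match. CSF3 and IL11 held no siNRP1#5 match, and TIMP3, MMP9 and EGLN3 no siNRP1#3 match. The part of seed pairing in any of these differences was not tested.

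**Figure D5:**
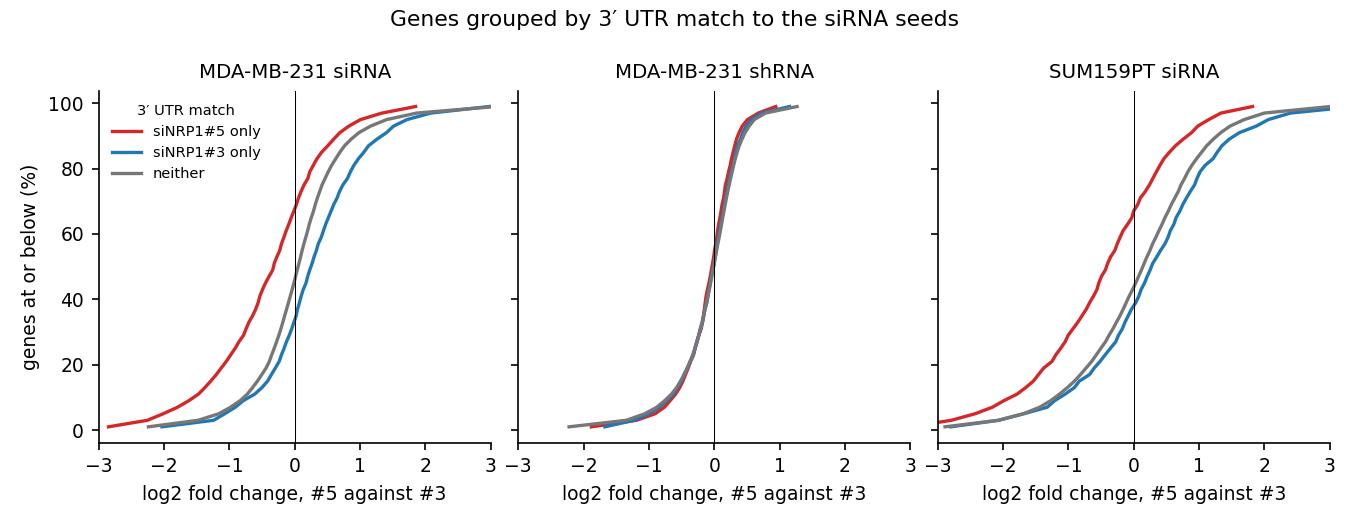
Cumulative share of genes (vertical axis, percent) at or below a log2 fold change of #5 against #3 (horizontal axis) for genes whose 3′ UTR holds only the siNRP1#5 seed match (red), only the siNRP1#3 match (blue) or neither (grey), in the siRNA comparison of MDA-MB-231, its shRNA comparison and the siRNA comparison of SUM159PT. In both siRNA panels the red curve lies to the left and the blue one to the right of grey, with medians of -0.33, 0.25 and 0.05 in MDA-MB-231 and -0.42, 0.27 and 0.14 in SUM159PT, while in the shRNA panel the 3 curves lie together with medians of -0.04, -0.01 and -0.01. The blue class is set by the siNRP1#3 seed, and shNRP1#3 has another sequence, so that the shRNA panel is no test of that seed.

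The contrast of #5 against #3 made by shRNA shares no sample with the siRNA one. shNRP1#5 has the sequence of siNRP1#5, whereas shNRP1#3 is a different sequence at a neighbouring site. NRP1 was at 83.8, 101 and 100.4 CPM in shNRP1#5 and 67.9, 68.6 and 75.7 CPM in shNRP1#3, a log2 fold change of 0.43 (edgeR, adjusted p = 0.0565), so that the hairpins did not differ in NRP1 as the siRNAs did. The transmembrane sum had a mean of 19.9 TPM in shNRP1#5, 13.0 TPM in shNRP1#3 and 42.7 TPM with a non-targeting shRNA (shNT). The soluble sum had 9.80, 13.9 and 21.5 TPM. Both sums were thus below shNT with either hairpin, and the soluble form was not spared by shNRP1#3 as it was by siNRP1#3. In shNRP1#5 against shNRP1#3, 1121 genes were higher (5.96%) and 1549 lower (8.24%) in the fit of all 6 groups. With only the 2 groups of each contrast fitted, shRNA gave 5767 calls and siRNA 4462. Which contrast had more calls thus depended on the fit, and the overlaps below use that of all 6 groups. Of the genes higher with siRNA, 330 were higher with shRNA too, 8.76% of the siRNA list and 29.4% of the shRNA list. Of those lower with siRNA 400 were lower with shRNA, 11.2% and 25.8% of the lists. In the opposite direction went 402 genes higher with siRNA and lower with shRNA and 164 with the reverse. The log2 fold changes of siRNA and shRNA differed in 5388 genes (28.7%) by the interaction term.

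ITGB4 was lower by both means, at 55.2, 44.7 and 42.0 CPM in shNRP1#5 against 205, 179.6 and 181 CPM in shNRP1#3 (log2 fold change -2.0, edgeR, adjusted p = 1.82e-05). CDH1 was not: it was at 0.37, 0.127 and 0.136 CPM in shNRP1#5 and 0.794, 0.784 and 0.522 CPM in shNRP1#3 (log2 fold change -1.64, edgeR, adjusted p = 0.0151), opposite to the siRNA samples. IL11 also turned, with 49.7, 42.7 and 49.0 CPM against 14.5, 21.5 and 21.5 CPM (log2 fold change 1.3, edgeR, adjusted p = 0.000294), and TIMP3, with a log2 fold change near 0, did not pass (edgeR, adjusted p = 0.989). Glycolysis and hypoxia genes had 0 higher and 9 lower of 20 (median -0.42), NRP1 co-receptors 2 higher and 3 lower of 22, and epithelial genes 0 higher and 5 lower of 18. NF-kB genes were lower by shRNA also, 7 of 20 with 1 higher (median -1.09). Among low-level genes, OLR1, a scavenger receptor of oxidised lipoprotein, was higher by both, at 1.48, 0.679 and 0.305 CPM against 0, 0.0163 and 0 CPM with shRNA and 0.442, 0.209 and 0.273 CPM against 0.0225, 0.0211 and 0.032 CPM with siRNA, where siNRP1#3 had 3 counts in all. KYNU, kynureninase, was lower by both, with -2.11 (SE 0.56, edgeR, adjusted p = 0.00589) by siRNA and -4.0 (edgeR, adjusted p = 0.000452) by shRNA. In shNRP1#3 replicate 3, genes of HS578T and SUM159PT were at a median of 3.3% and 2.73% of their own line's level, and without it 622 genes were higher and 1032 lower (1654 in all). The shRNA calls fell to 1205 and 1226 without shNRP1#5 replicates 2 and 3 and to 1394 and 1526 without shNRP1#3 replicates 1 and 2.

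In SUM159PT the same siRNAs were given at the same dose and time. With siNRP1#5 against siNRP1#3, 3208 genes were higher (16.0%) and 2759 lower (13.7%) of 20067 tested. Among 17206 genes tested in both lines, 1490 were higher in both (42.4% of the MDA-MB-231 and 49.3% of the SUM159PT list) and 1274 lower in both (39.3% and 55.3%), while 105 and 67 went in opposite directions. The difference between the lines passed the test in 2340 of 22039 genes (10.6%). NRP1 had a log2 fold change of -2.22 (edgeR, adjusted p = 0.000415) in SUM159PT, a smaller step than in MDA-MB-231 by 1.91 on the log2 scale (edgeR, adjusted p = 0.00136).

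ANKRD52 was lower in both lines, at 22.7 and 35.7 CPM in the siNRP1#5 samples of SUM159PT against 372, 348 and 380.2 CPM in siNRP1#3 (log2 fold change -3.65, edgeR, adjusted p = 1.74e-05). GALNT3 was too, but near the floor in SUM159PT, at 0 and 0.0397 CPM against 0.451, 0.28 and 0.937 CPM (log2 fold change -4.42, edgeR, adjusted p = 0.00146). The size of its fold change is therefore uncertain there, at -7.67 to -3.74 when a sample was left out. LSP1 was higher in both, at 34.9 and 145.5 CPM against 0.903, 0.77 and 0.53 CPM in SUM159PT (log2 fold change 6.94, edgeR, adjusted p = 0.000259). CD180 was too, at 1.78 and 78.5 CPM against 0.0752, 0.0467 and 0.122 CPM (log2 fold change 8.88, edgeR, adjusted p = 0.00044), but 4.38 without siNRP1#5 replicate 3 (edgeR, adjusted p = 0.0116). The call of FGFBP1, a carrier of fibroblast growth factors, rested on that replicate in SUM159PT: it was at 0.0635 and 29.0 CPM against 0.0501, 0 and 0.0204 CPM (log2 fold change 9.15, edgeR, adjusted p = 0.00343), and did not pass without it (1.38, edgeR, adjusted p = 0.769). MMP9 rose by 6.44 (edgeR, adjusted p = 0.000198) there, KRT7 by 2.41 (edgeR, adjusted p = 0.00479, but 0.0927 without siNRP1#5 replicate 2) and CDK6 by 2.63 (edgeR, adjusted p = 0.000182). CDH1, by contrast, was at 0.286 and 0.0595 CPM against 0.0251, 0.07 and 0.102 CPM and did not pass in SUM159PT (log2 fold change 1.24, edgeR, adjusted p = 0.325), nor did AQP3 (log2 fold change 0.54, edgeR, adjusted p = 0.652) or CSF3 (log2 fold change -0.41, edgeR, adjusted p = 0.853). Of the groups, NRP1 co-receptors had 9 higher and 5 lower of 20, with 4 and 5 higher without siNRP1#3 replicates 1 and 3 and 3 without siNRP1#5 replicate 3. Glycolysis and hypoxia genes had 6 higher and 2 lower of 20, or 3 and 4 without siNRP1#5 replicate 3. NF-kB genes had 1 higher and 1 lower of 19, or 0 and 6 without siNRP1#5 replicate 2. DNA replication genes, divided in MDA-MB-231, had 14 higher and 0 lower of 22 in SUM159PT (10 to 15 higher when a sample was left out). ATF4 and unfolded protein response genes had 12 higher and 0 lower of 20, but 5 higher without siNRP1#5 replicate 2, and in 4 of the 12 the samples overlapped. ASNS, asparagine synthetase, was at 976 and 53.4 CPM in siNRP1#5 against 16.98, 72.0 and 17.5 CPM in siNRP1#3, so that replicate 3 lay within the range of siNRP1#3. In all 3 comparisons, 193 genes were higher and 223 lower.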

How the data were processed

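The authors trimmed reads with Trim Galore 0.6.5, aligned them with STAR 2.7.2b to GRCh38 and quantified them with RSEM 1.3.3 against Ensembl 114 (GENCODE 48). The deposited expected counts per gene are not scaled for depth, and the deposited TPM and isoform percent come from the same step. Expected counts were rounded here, filtered (filterByExpr), TMM-scaled and tested with edgeR 4.0.16 (R 4.3.3) by its quasi-likelihood test with Benjamini-Hochberg adjustment. The MDA-MB-231 fit took 18 samples in 6 groups, SUM159PT was fitted on its own 17 samples, and the difference between the lines was tested over 35 samples. The study names no differential expression test, so the design was chosen here. SE is the log2 fold change divided by the root of F. On simulated counts for this contrast (18346 genes), 79 of 100 genes changed by a log2 fold change of 1 and 90 of 100 changed by 1.5 were called. Calls on unchanged genes were 8, or 4.52% of its calls. No other genes were changed there and all groups had the same spread for a gene, unlike in the data. These rates therefore need not carry over. DESeq2 1.42.0 was an alternative. Transcript sums were compared on log2(TPM + 0.1).

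Genes were named by rule: the 12 furthest in each direction with separate samples and at least 5 CPM, up to 4 per list by adjusted p, those shared with the other contrasts, and 6 abundant ones. Other genes in the text were picked from the lists after their values were seen. The comparison, the gene lists and the seed match description were chosen with earlier results of these data known. Site and 3′ UTR positions come from GENCODE 44 on the same build, and miRNA sequences from RefSeq. Counting intervals (95%, exact) and floors cover counting error only. Deviations of same-numbered samples correlated at -0.03, 0.11 and 0.27 between siNRP1#3 and siNRP1#5, at 0.14, 0.04 and 0.23 between siNT and siNRP1#3, and at 0.31, 0.30 and 0.39 between siNT and siNRP1#5, so that the numbers were taken to pair only the last. All columns were assigned to samples (0 left out).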

Additional observations from a re-analysis of the deposited data

Results flagged for a closer look

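Results of the siRNA contrast that differed from those of the shRNA contrast in the same cells, or of the same siRNAs in SUM159PT, by the test of the difference itself, are listed with that difference in log2 fold change (quasi-likelihood test of edgeR, adjusted p below 0.05). The siRNA and shRNA contrasts differed in 5388 genes, and the lines in 2340. Of 115 named genes, 95 passed the first difference and 32 the second, and those given here were called in opposite directions, apart from NRP1.

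NRP1 differed by -4.61 between siRNA and shRNA and by -1.91 between MDA-MB-231 and SUM159PT. Genes higher with siRNA and lower with shRNA were CDH1 (difference 8.35), FGFBP1 (8.22), AQP3 (6.00), PDGFB (4.39), IFIT1 (3.48), IFIT2 (2.79), SCD (2.98), TGFB2 (2.92), L1CAM (2.72), S100A4 (2.34), TIMP2 (2.23), CLDN4 (1.66), TMSB4X (1.64), CDKN1B (1.28) and ACACA (1.01). Genes lower with siRNA and higher with shRNA were IL11 (-3.04), FOSL1 (-1.75) and ETV5 (-1.56). Between the lines ATF4 differed by -2.12, being called lower in MDA-MB-231 and higher in SUM159PT, and F3 by 3.01 in the reverse sense. In SUM159PT ATF4 was at 1732 and 474 CPM in siNRP1#5 against 204, 523 and 251 CPM in siNRP1#3, so that the groups overlapped. Its call there was lost without siNRP1#5 replicate 2 (0.53, edgeR, adjusted p = 0.504), siNRP1#3 replicate 1 or siNRP1#3 replicate 3, and in MDA-MB-231 it was lost in 4 alternatives. Delivery, selection, harvest time, the #3 sequence and the NRP1 forms left all differ between siRNA and shRNA samples and cannot be told apart. Reads of other lines in shNRP1#3 replicate 3 also enter every shRNA value.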

How the results depend on the processing

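Direction held in all alternatives run for NRP1, both transcript sums and the 115 named genes. Of those genes 109 kept their call in all 13 alternatives, and ATF4, BUB1, HLA-DQB2, SULT1C2, TMTC1 and XPO5 lost it in some. NRP1 ranged from -4.42 to -4.01 when a sample was left out, the soluble sum from -6.83 to -6.16 and the transmembrane sum from -2.66 to -2.16. With a pseudocount of 1 the sums were -4.34 and -1.32.

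The 7329 calls became 3256 with a log2 change of at least 1 and 4462 with only the 2 groups fitted, and 6060 to 7708 when a sample was left out. Only the 2 groups gave 5767 calls for shRNA and 3401 for SUM159PT. Leaving out samples gave 1205 to 1938 for shRNA, 4208 to 5261 for SUM159PT, 4383 to 6093 for the siRNA against shRNA difference and 1513 (without MDA-MB-231 siNRP1#3 replicate 1) to 2943 for the line difference. Scaling by library totals alone was chosen after seeing the data. Fitting only the 2 groups leaves fewer degrees of freedom and a spread estimated from those groups alone. Calls then fell for siRNA and SUM159PT but rose for shRNA, from 2670 to 5767. The cause of these shifts was not tested.

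With the replicate number as a block, 7485 genes were called (3812 higher and 3673 lower) and NRP1 was -4.18. The same block, added after seeing the data, gave 5716 calls in place of 5518 for siNRP1#5 against siNT, where the numbers pair the samples, and 4944 in place of 4823 for siNRP1#3 against siNT. Among the 115 named genes it lost 0 calls, added 2 and turned the direction of 1 in each of these. Log2 fold changes shifted by at most 0.45 for siNRP1#5 and 0.29 for siNRP1#3 against siNT. Of the named genes HLA-DQB2 lost its call under the block.

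Depth limits genes at a few counts: fold changes of CD180, CD248, LIN28A and TNNT2 rest on 0 to 2 counts in siNRP1#3.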

Other observations

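Only lower genes with the siNRP1#5 match and higher genes with the siNRP1#3 match were looked at. The direction of each direct difference thus follows from the choice. Those with a strong difference that the sections above do not name are given as values, chosen after their values were seen. Each holds the siNRP1#5 match and was lower: MTMR4, a phosphoinositide phosphatase of endosomes, had a mean of 7.00 CPM in siNRP1#5, 61.2 CPM in siNRP1#3 and 53.7 CPM in siNT, PRAF2 4.69, 36.3 and 20.6 CPM, SLC25A12, the mitochondrial aspartate-glutamate carrier, 4.88, 31.3 and 25.1 CPM, and PIK3AP1 1.74, 10.9 and 11.1 CPM. Each of the following holds the siNRP1#3 match and was higher in siNRP1#5: BACE1, the beta-secretase, had a mean of 84.5 CPM in siNRP1#5, 11.6 CPM in siNRP1#3 and 44.2 CPM in siNT, ADAMTS15 161, 16.2 and 91.9 CPM, SCARA3 129, 18.2 and 75.0 CPM, and APLN, the ligand apelin, 27.8, 3.25 and 15.2 CPM.

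In SUM159PT the log2 fold change of siNRP1#5 against siNRP1#3 was -2.82 for MTMR4, -3.54 for PRAF2, -2.16 for SLC25A12, -2.34 for PIK3AP1, 2.40 for BACE1, 1.79 for ADAMTS15, 2.69 for SCARA3 and 4.30 for APLN. With shRNA it was -0.59 for MTMR4 (edgeR, adjusted p = 0.0106), -1.06 for ADAMTS15 (edgeR, adjusted p = 0.00212), and did not pass for the other 6 of these genes. MTMR4 holds the siNRP1#3 match as well. LGALS12, PDE9A and NEBL hold that match and were higher directly, by 4.50, 3.22 and 2.59. In SUM159PT LGALS12 had 6.32 (edgeR, adjusted p = 0.000797) and NEBL -0.23 (edgeR, adjusted p = 0.831), while PDE9A had no value. With shRNA LGALS12 had -4.18 (edgeR, adjusted p = 1.76e-05), NEBL -1.56 (edgeR, adjusted p = 0.000379) and PDE9A 0.77 (edgeR, adjusted p = 0.0706). The part of seed pairing in these values was not tested.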
